A study of Mus musculus with 4 samples.

Results

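Brown preadipocytes are the committed precursors of brown fat cells, and a main job of mature fat cells is the storage and release of triglyceride. The genes described here encode the machinery of that job and the hormones that mature fat cells secrete. They were taken from a list of 32 genes, and a gene was counted as a member where at least 1 probe set of the array carried its symbol and no other in the platform annotation. That left 29 members with 58 probe sets, out of 18193 named genes and 45037 probe sets. No probe set used here carried the symbols of Plin1, Acsl1 and Cfd, and these genes are not analysed here. Of the 29 members, 18 had more than 1 probe set, and each gene is represented by its brightest one.

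The study hybridized total RNA of immortalized mouse brown preadipocytes of a mixed C57/BL6-129 strain to 4 arrays, and asked how loss of the histone H3 lysine 9 methyltransferase G9a changes expression in these cells. All cells carried floxed G9a alleles (G9af/f). The control group received a vector and is labelled wild type, and the other group received Cre and is labelled as a G9a knockout, with arrays numbered 1 and 2 in each. The labels name no adipogenic induction for these samples. Whether each line is a clone or a pool, and whether a group's arrays hold RNA from separate cultures, is not stated in the labels. The p-values thus measure only spread between these arrays. In them limma draws each probe set's own spread toward that of probe sets of like level. The spread between arrays is not purely technical. The X-linked Xist and the Y-linked Eif2s3y parted arrays numbered 1 from arrays numbered 2 in both groups (values with the replicate numbers).

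Fat cells store fatty acids by taking them up or making them from acetyl-CoA, esterifying them onto a glycerol backbone, and packing the triglyceride into droplets coated with perilipins. Lipases later release the fatty acids, and secreted factors such as adiponectin and leptin report the state of the store to other organs. In precursors most of the secreted and droplet-specific genes are known to come on with differentiation, while the enzymes that make fatty acids also serve membrane synthesis in dividing cells.

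The targeted gene Ehmt2, which encodes G9a, had signals of 2682 and 2688 on the control arrays, against 953 and 912 on the knockout arrays. Its log2 difference was -1.49 ± 0.20 (SE), with a limma adjusted p of 0.227, and of 0.000281 with the replicate number as a block. Which exons Cre removes is not in the labels, and a probe set that lies elsewhere in the gene is no check of the deletion. All 8 preadipocyte and mesenchymal markers with a probe set lay above the array median on all 4 arrays, whereas 1 of 9 brown adipocyte markers did and 6 of them, Ucp1 and Cidea among these, lay at or below it on every array. The macrophage list had 3 of 8 markers and the endothelial list 0 of 6 above it on all arrays, and 5 markers of each list, Ptprc and Itgam and Pecam1 and Cdh5 among them, were at or below it throughout. Those above it were Cd68, Csf1r and Cd14, while Kdr was above it on 3 arrays and differed by 1.33 without overlap, and Tek, below it, differed by 0.99 without overlap. Summed signals of the endothelial list were 148 and 82 on the control arrays and 338 and 158 on the knockout arrays, and those of the macrophage list were 868, 805, 1087 and 772 in the same order. Among the preadipocyte markers Dlk1 (-0.92), Pdgfra (-0.83) and Cd34 (-0.44) were lower in the knockout without overlap. Pdgfrb (0.40), Col1a1 (0.14), Col1a2 (0.12), Vim (0.05) and Thy1 (0.02) were higher by their brightest probe sets, with overlap. A second Pdgfrb probe set gave 0.62 without overlap, and further Vim probe sets gave -0.01 and -0.09. Further Pdgfra and Dlk1 probe sets were lower on average, with overlap. By their brightest probe sets, the brown markers Prdm16 (0.89) and Dio2 (0.60) were higher and Cox8b (-0.50) was lower without overlap. The other brown markers overlapped. Further Prdm16 probe sets gave -0.03, -0.10 and 0.20 with overlap, and those of Dio2 gave -0.11 and 0.32 without it. Cox8b read at most 15.1 units. Summed signals of the brown list were 361 and 458 on the control arrays and 624 and 548 on the knockout arrays. The part of these markers in the differences given here was not tested. Array medians ran from 50.6 to 78 signal units.

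A first question was which of these genes the undifferentiated cells already express. A member was counted as expressed where its deposited signal lay above the array median on both control arrays. By that rule 17 of 29 members were expressed, or 58.6%, beside 58% of all named genes, a share near the background. The 17 were the droplet coat genes Plin2 and Plin3, all 5 genes of fatty acid synthesis, Lpl and Angptl4, 4 genes of triglyceride assembly (Agpat2, Lpin1, Dgat1 and Dgat2), the lipase genes Pnpla2 and Lipe, Pdk4 and Pex11a. On both knockout arrays 20 members lay above the median, beside 58.7% of all genes.

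Several genes known as marks of mature fat cells were dim, though a smaller share of the members than of all genes was so. Adipoq (adiponectin), Lep (leptin), Cidec (a droplet fusion protein), Cd36 (a fatty acid transporter), Pck1 (which supplies the glycerol backbone) and Aqp7 (the glycerol channel) lay at or below the array median on all 4 arrays. These are 6 of 29 members, or 20.7%, beside 33.9% of all genes. Adipoq read 3.9 and 8.2 on the control arrays and 13.1 and 16.7 on the knockout arrays. Lep read 4.4 and 11.5 on the control arrays and 3.5 and 2.1 on the knockout arrays. Such readings are a small part of the array medians, where a MAS5 signal says little about an order between arrays. Near the limit, Plin4, Slc2a4 and Retn lay above the median on control 1, at 1.47, 1.47 and 1.53 times it, and below it on control 2, at 0.755, 0.751 and 0.951 times it. Lipe, just inside, stood at 1.49 and 1.3 times the control medians. Mgll was above the median on control 2 alone, Gpd1 on knockout 1 alone, and Hsd11b1 on both knockout arrays and on neither control.

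**Figure D1:**
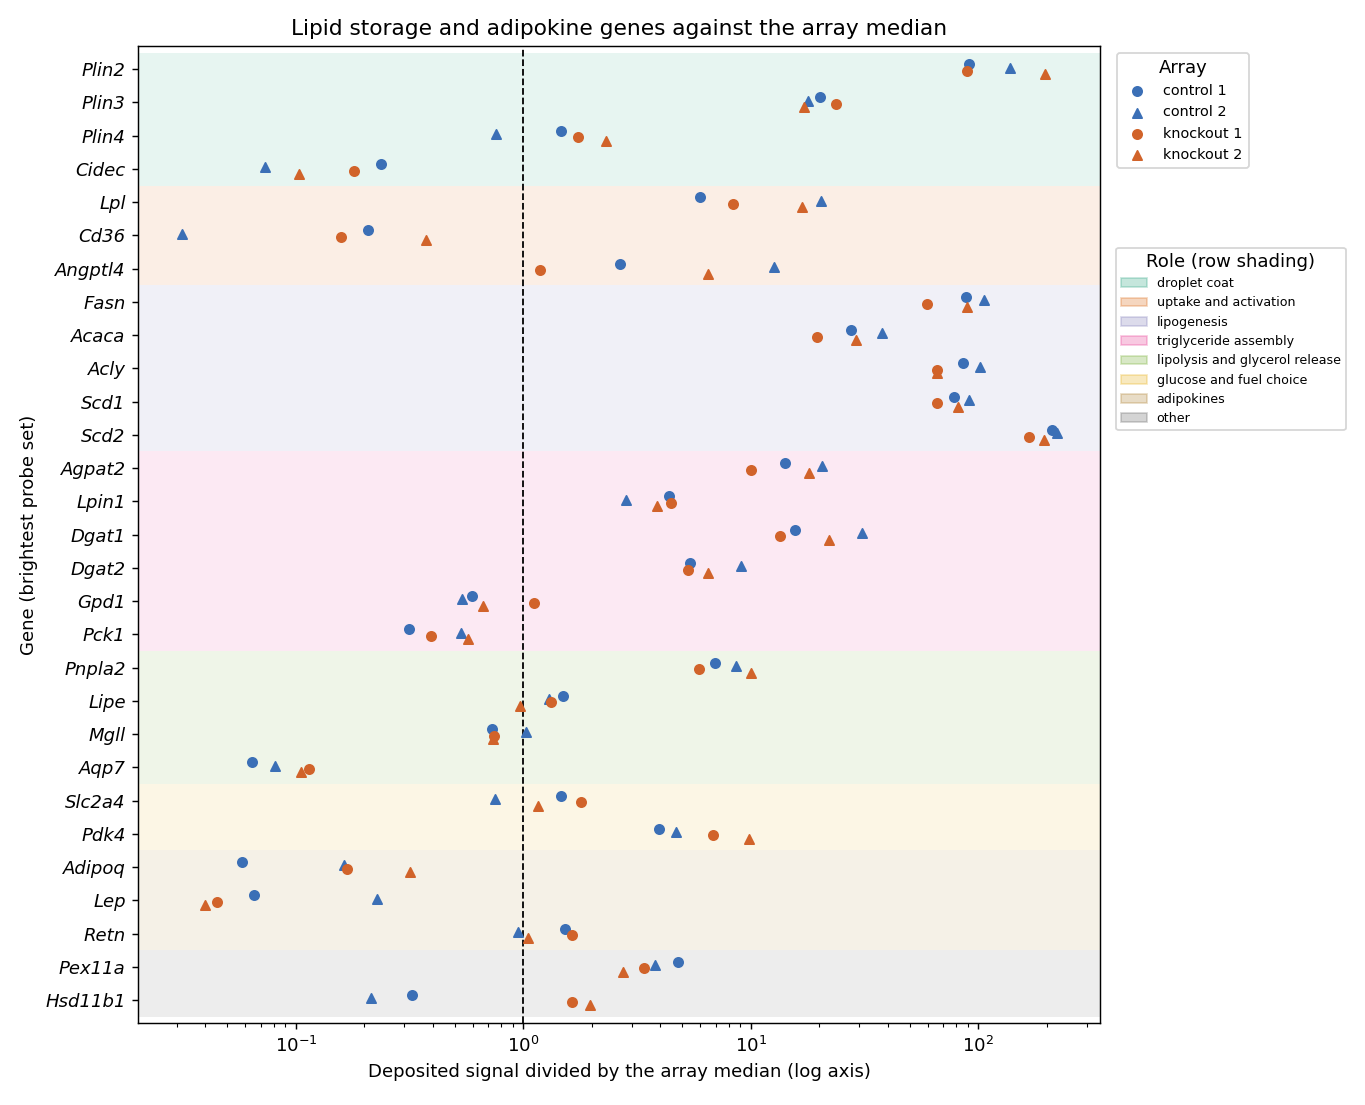
Deposited signal of each of the 29 members (rows, shaded by role) divided by the median of its array, on a log axis, for controls (blue) and knockouts (orange) numbered 1 (circles) and 2 (triangles). The dashed line marks the array median: 17 members lie to its right on both control arrays, 6 lie to its left on every array, and Hsd11b1 crosses it between controls and knockouts.

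Differences between the genotypes are given as knockout minus control on the scale of log2(signal + 16) after quantile normalization, and signals are as deposited. The test ran over probe sets at or above the 50th percentile of mean level, which held 20 of the 29 members. The other 9 (Cidec, Cd36, Gpd1, Pck1, Mgll, Aqp7, Adipoq, Lep and Hsd11b1) are described without a test. In the model without pairing, 0 of 20 members were called in either direction at a limma adjusted p under 0.05, beside 0% of 11079 genes, and 1 had an unadjusted p under 0.05, beside 5.07%. With the replicate number as a block, 1 member rose (Pdk4) and 1 fell (Angptl4), beside 3.25% of genes that rose and 0.984% that fell. Unadjusted p-values under 0.05 were then held by 7 of 20 members, beside 18.4% of genes. With the block and no filter, limma called 0 of 29 members in either direction, beside 0.236% of genes higher and 0.0495% lower, and 6 had an unadjusted p under 0.05, beside 13.3%. With 2 arrays a side, the smallest two-sided p of an exact permutation test is 0.333.

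The median difference of the 20 tested members was -0.09, and that of all genes was 0.007. Within replicate number 1 the members' median was 0.01, and within number 2 it was -0.15, where all genes had 0.03 and -0.01. Within both numbers alike, 7 members were higher in the knockout (Plin2, Plin3, Plin4, Lpin1, Slc2a4, Pdk4 and Retn), beside 32.8% of genes, and 9 were lower, beside 30.2%. The direction differed between the numbers for Lpl, Dgat1, Dgat2 and Pnpla2. The groups did not overlap for 3 members that were higher (Plin2, Plin4 and Pdk4), beside 17.5% of genes, and for 2 that were lower (Fasn and Acaca), beside 13.6%. At a difference of 2-fold or more without overlap there were 0 members in either direction, beside 2.18% of genes higher and 0.569% lower. Pdk4 lay just under that limit at 1.99-fold.

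**Figure D2:**
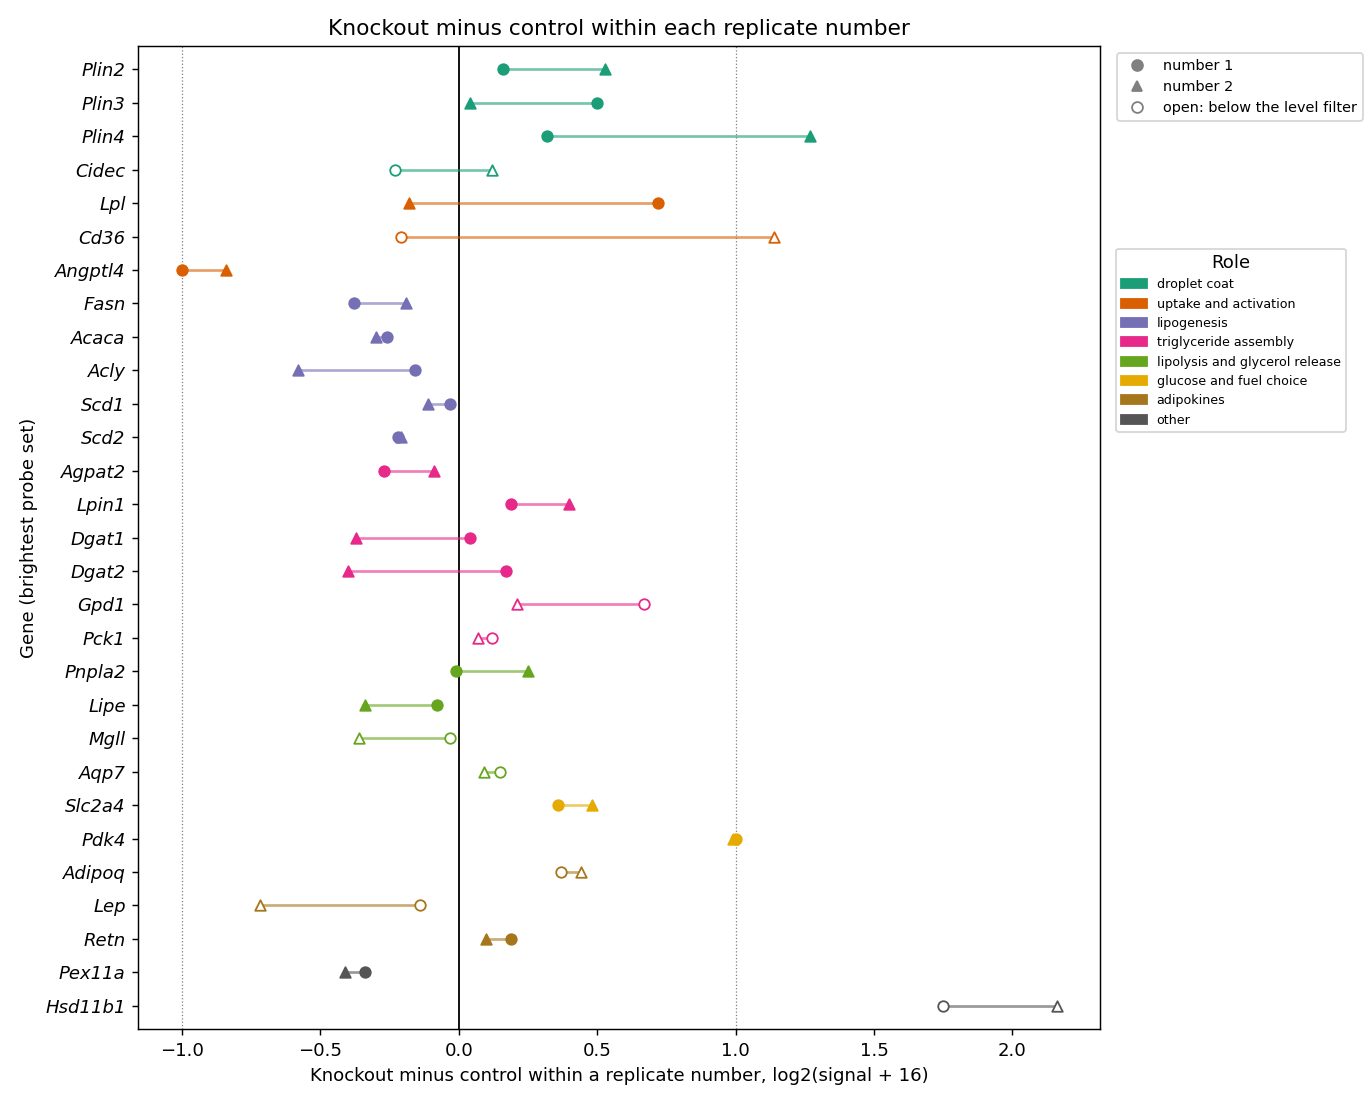
Knockout minus control within replicate number 1 (circles) and number 2 (triangles) for all 29 members, on the log2(signal + 16) scale, coloured by role, with open symbols for members below the level filter. Pdk4 and Hsd11b1 stand to the right in both numbers, Angptl4 to the left in both, and the 5 lipogenesis genes lie left of 0 throughout.

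The droplet coat genes that could be tested were higher in the knockout without passing the test in either model. Perilipins wrap the droplet surface and control the access of lipases to it. The 3 tested members had a median difference of 0.35, and all 3 were higher within both numbers under quantile normalization. With median centring Plin2 was at -0.03 within number 1 and Plin3 at -0.06 within number 2, and Plin3 was at -0.0038 there with the scaling as deposited. Plin2, the perilipin of small droplets in most cell types, read 6125 and 6989 on the control arrays and 6955 and 10321 on the knockout arrays. As deposited, knockout 1 lay slightly under control 2, while after normalization the groups did not overlap. The difference was 0.35 ± 0.17, with a 95% interval from -0.07 to 0.76, and from 0.11 to 0.58 with the block (limma adjusted p = 0.999, and 0.124 with the block). It was 0.13 without knockout 2 and 0.56 without knockout 1. Plin4, a perilipin of nascent droplets in fat cells, read 99.0 and 38.2 on the control arrays and 135.9 and 121.3 on the knockout arrays. Both knockout readings exceeded both controls, and the difference of 0.79 ± 0.35 was made up of 0.32 within number 1 and 1.27 within number 2 (limma adjusted p = 0.999, and 0.218 with the block). Without control 1 it was 1.17, and without control 2 it was 0.42. Plin3, a perilipin that also serves in vesicle traffic, read 1352 and 905 on the control arrays and 1847 and 903 on the knockout arrays, so it differed within number 1 (0.50) and hardly within number 2 (0.04). Cidec lay below the filter, at 15.9 and 3.7 on the control arrays and 14.1 and 5.4 on the knockout arrays.

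Among the genes of fatty acid uptake, Angptl4 was lower in the knockout within each replicate number. Lipoprotein lipase frees fatty acids from circulating triglyceride, and Angptl4 encodes a secreted inhibitor of that lipase which is also a known target of PPAR receptors. Angptl4 read 179.4 and 644.7 on the control arrays and 92.3 and 339.5 on the knockout arrays. The groups overlapped, since array 2 was the higher one by 1.90 among controls and 2.06 among knockouts, and each knockout lay below the control of its own number, with differences of -1.0 and -0.84. The mean difference was -0.92 ± 0.84 without pairing (limma adjusted p = 0.999). With the block the SE was 0.20 (95% interval -1.37 to -0.47) and Angptl4 fell, with a limma adjusted p of 0.0353. Over all alternatives its adjusted p ran from 0.0202 to 1, and the call ended in the blocked model with no filter (0.208) and with a pseudocount of 64 (0.0522). Leaving out 1 array unbalances the numbers and moved the difference to -1.87 without control 1, -1.95 without knockout 2, 0.03 without control 2 and 0.11 without knockout 1. Its probe set has the suffix of those that can match several transcripts, and the second Angptl4 probe set was below the filter.

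Lpl itself, the lipase gene, did not differ in a single direction. It read 400.4 and 1034 on the control arrays and 655 and 883 on the knockout arrays, so it was higher by 0.72 within number 1 and lower, at -0.18, within number 2. The mean difference was 0.27 ± 0.49 (limma adjusted p = 0.999), and the second probe set gave 0.07 ± 0.41. For Cd36 all 3 probe sets lay below the filter, with no reading above 19.7 units.

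All 5 genes of fatty acid synthesis and desaturation were lower in the knockout by small amounts, within both replicate numbers, and none passed the test in either model by its brightest probe set. Their median difference was -0.28, with -0.22 and -0.21 within numbers 1 and 2. These enzymes run in series: Acly makes cytosolic acetyl-CoA from citrate, Acaca carboxylates it to malonyl-CoA, Fasn builds palmitate, and the Scd enzymes insert a double bond. Each was far above the array median, from 19.5 to 221 times it over the 5 genes and 4 arrays. Fasn read 5932 and 5339 on the control arrays and 4635 and 4690.0 on the knockout arrays. The 2 knockouts lay below both controls, at -0.29 ± 0.16 (limma adjusted p = 0.999, and 0.203 with the block). The 95% interval ran from -0.68 to 0.11, and from -0.52 to -0.06 with the block. Acaca read 1846 and 1908 on the control arrays and 1521 and 1519 on the knockout arrays. The groups were again apart, by -0.28 ± 0.20, and the arrays of a genotype were nearly equal. The other Acaca probe set, below the filter, went the opposite way by 0.20, with 0.33 and 0.08 within the numbers. After normalization its groups did not overlap.

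For Acly, 1 of its other probe sets fell with the block, a call lost in the blocked model with no filter (adjusted p = 0.203 by limma). Its brightest probe set read 5760.2 and 5148 on the control arrays and 5149 and 3449 on the knockout arrays (-0.37 ± 0.26; limma adjusted p = 0.999, and 0.149 with the block). Its difference was -0.03 without knockout 2 and -0.71 without knockout 1. A second probe set read 1458.5 and 2040.3 on the control arrays and 1009 and 822 on the knockout arrays, with no overlap and a difference of -0.86 ± 0.26 (limma adjusted p = 0.903, and 0.0339 with the block). Another read 5314 and 5875 on the control arrays and 4645 and 3472 on the knockout arrays (-0.47 ± 0.20; limma adjusted p = 0.999, and 0.0928 with the block). In all 3 the difference was larger within number 2 than within number 1. Scd2, the desaturase isoform expressed widely in precursors and brain, read 14226 and 11178 on the control arrays and 13059 and 10161 on the knockout arrays (-0.22 ± 0.20). Scd1, the isoform of liver and mature fat, read 5259.9 and 4604 on the control arrays and 5128 and 4267 on the knockout arrays (-0.07 ± 0.20), and its second probe set went the other way (0.07 ± 0.24). Scd1 and Scd2 are close paralogs, and how far their probe sets detect each other was not tested. The direction of the group held for 5 of 5 genes under each scaling, with medians of -0.27 as deposited and -0.40 with median centring, a scaling that moved the median of all genes to -0.115. Without control 1 the group's median was -0.15 with 3 of 5 genes lower, and without knockout 2 it was -0.03 with 4 of 5 lower.

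The window before the start of Fasn is shown because this gene was bright on all arrays and parted the genotypes. It is the 250 bases before the RefSeq start in GRCm38.p6, chr11:120824548-120824797 on the minus strand, written 5′ to 3′ along the gene. Capitals mark the letters CCAAT or their reverse complement ATTGG, the box bound by NF-Y, a factor known from promoters of lipogenic genes.
Fasn: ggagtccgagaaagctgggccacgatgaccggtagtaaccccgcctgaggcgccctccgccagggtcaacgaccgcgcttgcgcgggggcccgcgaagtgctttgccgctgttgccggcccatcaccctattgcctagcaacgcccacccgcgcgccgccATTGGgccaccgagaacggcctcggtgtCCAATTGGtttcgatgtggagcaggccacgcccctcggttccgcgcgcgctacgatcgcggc
Counted back from the base before the start as -1, matches lay at -90 to -86, -62 to -58 and -59 to -55, and the last 2 overlap. CCAAT was found on either strand in 33.8% of 32851 windows of this length and in 8 of the 25 windows of the 21 members that had one. Also searched on both strands were AGGTCA, the half-site of nuclear receptors (14% of all windows, and 6 of 25), the DR1 repeat, which is that half-site in direct repeat 1 base apart and which PPARγ is known to bind (0.0335%, and 0 of 25), TCACNCCAC, a sterol regulatory element (1.05%, and 0 of 25), the E-box CACGTG (6.02%, and 2 of 25), TTGCNCAA, a C/EBP motif (2.61%, and 2 of 25), and TATAAA (12.4%, and 0 of 25). The Fasn window held none of these other motifs. AGGTCA lay in windows of Plin2, Cd36, Aqp7, Acly and Lpin1. A match is a description of these letters and not a site.

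The genes of triglyceride assembly showed no common direction. Gpd1 and Pck1 supply the glycerol backbone, Agpat2 adds the second fatty acid, lipins remove the phosphate, and the Dgat enzymes add the last fatty acid. Of 4 tested members, 1 was higher and 3 were lower, with a median of -0.14. Lpin1 read 293.3 and 142.9 on the control arrays and 348.6 and 202.5 on the knockout arrays, a difference of 0.30 ± 0.34 that its second probe set matched in direction (0.24 ± 0.36). Each knockout exceeded its own control, yet array 1 lay above array 2 in both genotypes, so the groups overlapped. Agpat2 read 957 and 1038 on the control arrays and 782 and 946 on the knockout arrays (-0.18 ± 0.25). Dgat1 read 1052 and 1551 on the control arrays and 1045 and 1161 on the knockout arrays (-0.16 ± 0.28), at 0.04 within number 1 and -0.37 within number 2. Dgat2 read 364.0 and 458.5 on the control arrays and 414.4 and 339.7 on the knockout arrays (-0.12 ± 0.27). All 4 had limma adjusted p-values of 0.999. Gpd1, below the filter, read 39.9 and 27.1 on the control arrays and 86.4 and 34.9 on the knockout arrays, and Pck1 had no reading above 30.7 units on its brightest probe set.

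The lipase genes Pnpla2 and Lipe were expressed, and no difference was detectable with these arrays. Pnpla2 encodes adipose triglyceride lipase, which takes the first fatty acid off the triglyceride, and Lipe encodes hormone-sensitive lipase, which takes the next. Pnpla2 read 468.4 and 435.7 on the control arrays and 464.2 and 527.3 on the knockout arrays (0.12 ± 0.25; 95% interval -0.48 to 0.71). With median centring its difference was -0.0016. Lipe read 100 and 65.7 on the control arrays and 103.3 and 50.6 on the knockout arrays (-0.21 ± 0.30; 95% interval -0.95 to 0.53). These intervals, from the model without pairing, still allow differences of more than 1.5-fold in either gene. With the block they ran from -0.29 to 0.52 for Pnpla2 and from -0.82 to 0.40 for Lipe. Mgll, the monoglyceride lipase gene, stayed between 38.7 and 58.1 units, and Aqp7 read at most 8.9.

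Pdk4 was higher in the knockout, by nearly the same amount in both replicate numbers. It encodes a kinase that switches off pyruvate dehydrogenase and so spares glucose when fatty acids are burned. Pdk4 read 264.7 and 237.6 on the control arrays and 531.3 and 517.4 on the knockout arrays. The arrays of a genotype lay close together and the groups were far apart. The difference was 0.99 ± 0.23, or 1.99-fold (95% interval 0.43 to 1.56), with a limma adjusted p of 0.63 without pairing. With the block Pdk4 rose, with an SE of 0.19, a limma adjusted p of 0.0162, and its difference was 1.0 in number 1 and 0.99 in number 2. Over all alternatives its adjusted p ran from 0.00579 to 1, and it was 0.125 in the blocked model with no filter. Leaving out any 1 array gave differences from 0.95 to 1.04. Slc2a4, the insulin-responsive glucose transporter GLUT4, read 99.0 and 38.0 on the control arrays and 140.1 and 61.1 on the knockout arrays, higher by 0.36 and 0.48 within the numbers, though the groups overlapped (0.42 ± 0.39; limma adjusted p = 0.999). That difference was 0.04 without control 2, 0.10 without knockout 1 and 0.80 without control 1. Its other probe set, below the filter, went the opposite way without overlap, at 23.9 and 20.2 on the control arrays and 14.8 and 7.3 on the knockout arrays, with -0.52 and -0.74 within the numbers.

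Pdk4 and Slc2a4 are also known from muscle. The 6 muscle markers had a summed signal of 3208 and 1569 on the control arrays and 6384 and 8214 on the knockout arrays, most of it from Tnnt2. With the block Tnnt2 rose (1.75; limma adjusted p = 0.00334, and 0.523 without it), and so did Acta1 (1.29; limma adjusted p = 0.00722, and 0.409 without it). With the block and no filter both calls were lost, at 0.125 and 0.119. Des differed by 0.79 and Ckm by 0.46, both without overlap and without passing. The other probe sets of Des and Ckm each gave 0.01, with overlap, and further Tnnt2 probe sets gave 2.19 and -0.07. Myod1 and Myog, which define the skeletal muscle lineage, were at or below the array median on all arrays. The part of these markers in the Pdk4 and Slc2a4 differences was not tested. In RNA of whole cultures, fewer cells of a type and less RNA per cell cannot be told apart.

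Among the brightest probe sets of the 29 members, the largest difference was that of Hsd11b1, a gene below the level filter. It encodes the enzyme that regenerates active glucocorticoid from its inactive form inside cells. Hsd11b1 read 21.8 and 10.8 on the control arrays and 126.8 and 103.6 on the knockout arrays. Both controls lay under the array median, at 0.324 and 0.213 times it, and both knockouts above it, at 1.63 and 1.97 times it. The difference was 1.95, or 3.87-fold, with 1.75 and 2.16 within numbers 1 and 2. With no filter its limma adjusted p was 0.777 (SE 0.32), and 0.125 with the block (SE 0.34), so it did not pass in either model. The size depended on the pseudocount, with a difference of 2.66 with a pseudocount of 1 and 1.12 with 64. It was 2.04 with the scaling as deposited and 1.97 with median centring. The gene has 1 probe set. Without the filter, 2.02% of 18193 genes were at least 2-fold higher without overlap, and Hsd11b1 was the 1 member among them.

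**Figure D3:**
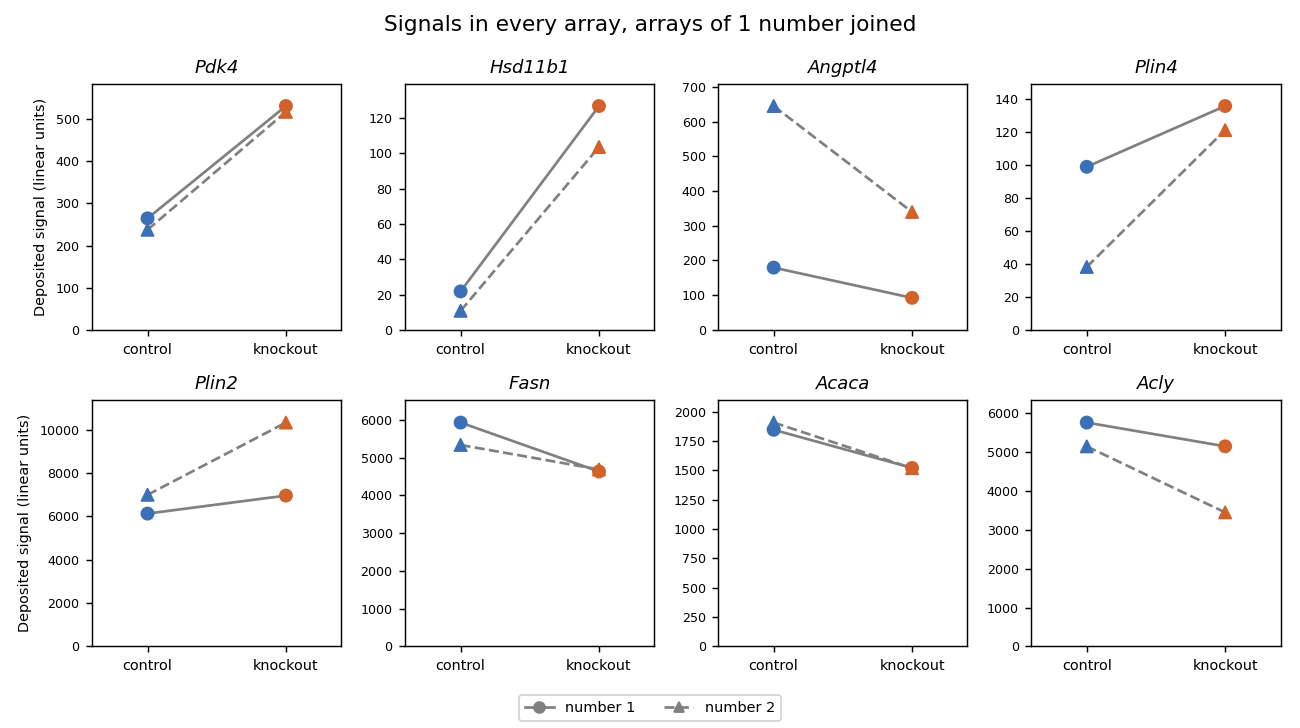
Deposited signals (linear units, axes from 0) of 8 members in control (blue) and knockout (orange) arrays, with lines joining arrays of number 1 (solid, circles) and number 2 (dashed, triangles). Pdk4 and Hsd11b1 are higher in the knockout on both lines, Angptl4 is lower on both lines from different starting levels, and Fasn and Acaca are lower in both knockouts.

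The windows before the starts of Pdk4 and Hsd11b1 are shown because these 2 members were higher in the knockout by at least 1.5-fold within both numbers. They lie at chr6:5496279-5496528 and chr1:193242361-193242610 in GRCm38.p6, both on the minus strand, with capitals as above.
Pdk4: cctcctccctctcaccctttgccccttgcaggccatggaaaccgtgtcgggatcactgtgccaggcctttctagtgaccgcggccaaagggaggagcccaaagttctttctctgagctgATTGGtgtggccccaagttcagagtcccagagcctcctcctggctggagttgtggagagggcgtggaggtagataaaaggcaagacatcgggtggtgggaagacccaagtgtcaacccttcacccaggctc
Hsd11b1: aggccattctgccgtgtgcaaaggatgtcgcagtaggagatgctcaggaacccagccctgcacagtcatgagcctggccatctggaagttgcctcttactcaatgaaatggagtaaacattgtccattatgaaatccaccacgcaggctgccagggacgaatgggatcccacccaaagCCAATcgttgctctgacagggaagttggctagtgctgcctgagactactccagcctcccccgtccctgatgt
Each window held 1 CCAAT match, at -131 to -127 for Pdk4 and at -72 to -68 for Hsd11b1, and none of the other motifs searched. The deposited data here measure RNA alone, and nothing in them bears on binding at these windows.

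Of the adipokine genes only Retn could be tested. Resistin, its product, is a secreted factor of mouse fat cells. Retn read 103.1 and 48.1 on the control arrays and 128.2 and 54.9 on the knockout arrays (0.14 ± 0.36; limma adjusted p = 0.999), with array 1 above array 2 in both genotypes. Its difference turned to -0.13 without control 2 and -0.17 without knockout 1, and was 0.42 without control 1 and 0.46 without knockout 2. Adipoq, with 0.37 and 0.44 within the numbers, and Lep, with -0.14 and -0.72, were too dim to support a direction. Pex11a, a peroxisome division gene, was lower within both numbers by its brightest probe set, and the groups overlapped. It read 321.7 and 192.7 on the control arrays and 263.3 and 144.6 on the knockout arrays (-0.37 ± 0.31). The second Pex11a probe set gave 0.03 within number 1 and -0.77 within number 2 (-0.37 ± 0.31).

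For most tested members the arrays differed more by replicate number than by genotype. Xist, the X-linked RNA of female cells, read 11049 and 9810.0 on control 1 and knockout 1 and 41.8 and 58.0 on control 2 and knockout 2, and the Y-linked Eif2s3y went the other way, at 141.1 and 227.6 against 1127 and 1265. The mean difference between array 2 and array 1 exceeded the genotype difference in size for 15 of 20 tested members, beside 61.6% of all genes. The median size was 0.36 for the number and 0.27 for the genotype over the members, and 0.26 and 0.18 over all genes. Array 2 lay above array 1 in both genotypes for 7 members, or 35%, beside 37.2% of all genes. It lay below array 1 in both for 10, or 50%, beside 35.3%. Angptl4 and Lpl were higher on array 2, Lpl by 1.42 in the controls and 0.51 in the knockouts. Plin3 was lower there, at -0.53 and -1.0, as were Slc2a4 at -0.76 and -0.64, Lpin1 at -0.71 and -0.50, and Retn at -0.55 and -0.63. Pdk4 hardly moved with the number (0.09 and 0.08), and neither did Acaca (0.03 and -0.01). Pparg, the nuclear receptor that controls many of these genes, read 111.0 and 252.2 on the control arrays and 131.7 and 348.8 on the knockout arrays (0.26 ± 0.64). Fabp4, a fatty acid carrier outside the list, differed by 2.65 ± 0.27 (limma adjusted p = 0.145, and 0.000104 with the block).

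**Figure D4:**
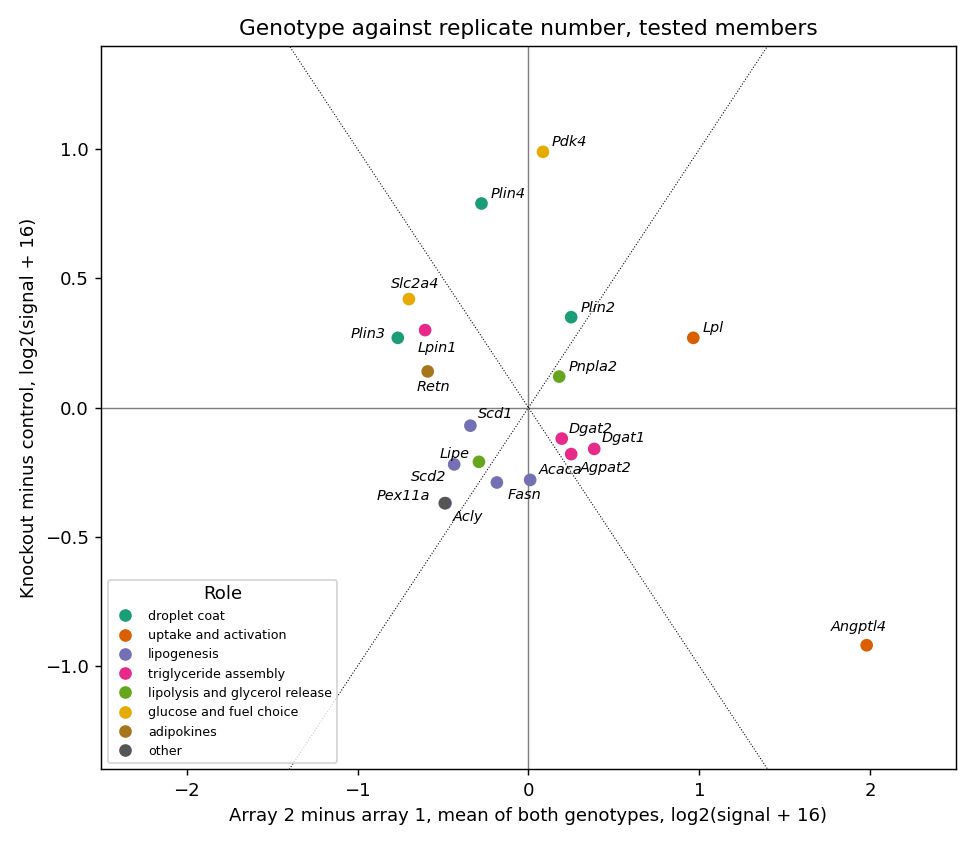
Knockout minus control (vertical) against array 2 minus array 1 averaged over both genotypes (horizontal) for the 20 tested members, both on the log2(signal + 16) scale and coloured by role, with dotted lines where both are equal in size. Pdk4 and Plin4 stand high near the vertical axis, Angptl4 lies far to the lower right, and 15 members lie on the outer sides where the number difference is larger.

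Other genes of the same pathways, 70 in number, were listed beside the members. Of these 65 had a probe set and 48 were tested. Without pairing 0 were called by limma in either direction, beside 0% of genes, and 5 of 48 had an unadjusted p under 0.05, beside 5.07%. With the block 2 rose and 1 fell, beside 3.25% and 0.984% of genes. With the block and no filter all 3 calls were lost, at limma adjusted p-values of 0.0771 for Lpin3, 0.104 for Mogat2 and 0.112 for Irs1. The 2 that rose act in triglyceride assembly. Lpin3, a paralog of Lpin1, read 93.9 and 98.4 on the control arrays and 317.1 and 363.8 on the knockout arrays (1.59 ± 0.29; limma adjusted p = 0.392, and 0.00256 with the block). The groups were well apart and alike in both numbers, at 1.58 and 1.61. Mogat2, which adds a fatty acid to monoacylglycerol, read 281.3 and 177.6 on the control arrays and 1069 and 420.1 on the knockout arrays (1.52 ± 0.44; limma adjusted p = 0.831, and 0.00469 with the block). Its difference was 0.89 without knockout 1. Irs1, the insulin receptor substrate, fell with the block, from 3024 and 2765 to 1775 and 1763 (-0.69 ± 0.19; limma adjusted p = 0.779, and 0.0177 with the block).

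Of the remaining genes on that list, those with the smallest p did not pass in either model. Agpat4, of the family of Agpat2, differed by 0.48 ± 0.17, and Agpat1, its relative, by -0.66 ± 0.26. With the block and another scaling each passed once, Agpat4 at a limma adjusted p of 0.0421 as deposited and Agpat1 at 0.0418 with median centring. Lmf1, a chaperone needed to fold lipoprotein lipase, differed by 0.65 ± 0.30, and Slc27a1, a fatty acid transporter, by 0.57 ± 0.32. Elovl6, which lengthens palmitate, differed by -0.43 ± 0.23. The other lipogenic genes had a median of -0.19 over 10 tested, with 6 lower and 2 higher within both numbers, beside 30.2% and 32.8% of all genes. The 13 tested genes of triglyceride assembly had a median of 0.10, with 6 higher and 2 lower within both, beside the same shares. The 3 tested genes of droplet coat and growth had a median of -0.14, unlike the droplet coat members, with 1 higher and 1 lower within both. Medians were 0.07 for uptake and activation, -0.02 for lipolysis and -0.01 for adipokines and insulin response. Over all 48 the median was -0.00074, with 24 genes higher and 24 lower.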

How the data were processed

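The data are 4 mouse arrays, 2 of vector control and 2 of Cre cells, all G9af/f. The authors deposited 1 signal intensity per probe set and array on a linear scale, made with MAS5 per the submitters' processing notes (version not given in the sources used here). Each array's mean, trimmed by 2% at each end, was 500. After removal of 64 control probe sets, intensities were quantile normalized, because array medians differed, and log2(signal + 16) was fitted with limma 3.58.1 (R 4.3.3; lmFit, eBayes with intensity trend) over 22519 probe sets at or above the 50th percentile. P-values were adjusted by Benjamini-Hochberg over all of these. On simulated data the fits were checked for the sign and mean size of differences alone. The simulated differences were larger than that of any tested member. Precision is limited by having 2 arrays a group.

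Symbols were updated by gene ID to RefSeq for 34741 of 34945 probe sets with 1 symbol. Promoter windows come from RefSeq, GRCm38.p6, and were found for 21 of the 29 members.

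Members, lists and role groups were chosen with earlier results of these data known. All members are named. Signals are given for each expressed member and for those at least 1.5-fold apart in the mean, with the same direction within both numbers. The other genes are the 8 of smallest p, and Ehmt2, Pparg and Fabp4 give context. Some second probe sets and dim members outside that rule were named after their values were seen. Over tested probe sets, departures from the group mean correlated at 0.603 between arrays sharing a number, and Xist and Eif2s3y parted number 1 from number 2 in both genotypes. On this basis, which is from the data and not the labels, same-numbered arrays were taken to share a source. The model without pairing, with 2 residual and 4.1 prior degrees of freedom, is the main one. The blocked model has 1 residual and 9.81 prior degrees of freedom. In both, each SE and p-value draws more on the spread shared over probe sets than on the probe set's own. Alternatives covered pseudocount, filter, scaling, eBayes form, averaging of probe sets and each array left out.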

Additional observations from a re-analysis of the deposited data

How the results depend on the processing

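The blocked model alone, among the alternatives chosen at the start, changed the call of a member. With the replicate block, 1 member was higher and 1 lower, against 0 and 0, and 2 other lipid genes were higher and 1 lower. The shares over all genes with the block were 3.25% higher and 0.984% lower. Combinations of the block with other settings were added after seeing the data. They called 1 higher and 1 lower member with the deposited scaling, median centring and a pseudocount of 1, and 1 higher and 0 lower with a pseudocount of 64. With no filter they called 0 members, beside 0.236% of genes higher and 0.0495% lower. The 75th percentile filter left Pdk4 and Angptl4 untested. Shares of all genes called by the other combinations are not given here, so those counts are no result about the members. Ehmt2 and Fabp4 passed with the block, and Fabp4 also with median centring without it. With every array in the model, the 1 tested member whose mean difference turned its sign was Pnpla2, at -0.0016 with median centring, paired or not. Of the members below the filter, Cidec turned from -0.05 to 0.02 with the deposited scaling.

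Members at least 2-fold higher without overlap were 1 with a pseudocount of 1 and with the deposited scaling (Pdk4). With no filter there was 1 (Hsd11b1), beside 2.02% of 18193 genes. Leaving out 1 array gave 0 to 1 in each direction. Higher within both numbers were 12 of 29 members with no filter and 2 of 11 with the 75th percentile filter. In the main setting they were 7 of 20, beside 32.8% of genes. Expressed were 9 of 29 at the 75th percentile of the array, or 31%, beside 36.8% of all genes. At the median they were 17, or 58.6%, beside 58%. Shares over all genes for the remaining counts of this paragraph are not given here.

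Leaving out each array turned the sign of some differences, with the numbers then unbalanced. The ranges were -0.23 to 0.77 for Plin3, -0.44 to 0.98 for Lpl, -1.95 to 0.11 for Angptl4, -0.26 to 0.12 for Scd1, -0.44 to 0.0019 for Scd2, -0.06 to 0.65 for Lpin1, -0.46 to 0.13 for Dgat1, -0.36 to 0.12 for Dgat2, -0.04 to 0.27 for Pnpla2, -0.17 to 0.46 for Retn and -0.53 to 1.06 for Pparg. Without a turn of sign, the ranges were 0.13 to 0.56 for Plin2, 0.42 to 1.17 for Plin4, -0.43 to -0.15 for Fasn, -0.71 to -0.03 for Acly, -0.35 to -0.01 for Agpat2, -0.42 to -0.0031 for Lipe, 0.04 to 0.80 for Slc2a4 and -0.64 to -0.11 for Pex11a. The blocked model has no residual degrees of freedom with an array left out, and within-number counts need both numbers, so neither was run there. The cause of these changes was not tested beyond that imbalance. Signals near or under the array median carry no detection call here, which limits what is said of Adipoq, Lep, Cd36 and Hsd11b1.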
